A study of Mus musculus with 6 samples.

Results

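The genes described here encode enzymes that make hydrogen peroxide, superoxide or nitric oxide, together with the proteins that mature or assemble them: the dual oxidases Duox1 and Duox2 and their maturation factors Duoxa1 and Duoxa2, the nitric oxide synthases Nos2 and Nos3, the phagocyte NADPH oxidase subunits Cybb, Cyba and Ncf1, and the NADPH oxidase Nox4. They were taken by gene symbol, and all 10 matched 1 entry each among the 24489 gene entries of the deposited table. Polyadenylated RNA came from 1 liver lobe of untreated mouse pups on a C3H/C57bl6J background at postnatal day 10, with 3 libraries of Jag1+/+ and 3 of Jag1Ndr/Ndr pups. Jag1 encodes a ligand of Notch receptors. The Ndr (Nodder) allele carries a missense mutation in it, and homozygous mice, in which intrahepatic bile ducts form poorly, serve as a model of Alagille syndrome. Every cell of the pup carries the allele. The RNA was that of bulk lobe tissue, so the libraries do not separate liver cell types. The genes were chosen by the difference in read counts between these same Jag1Ndr/Ndr and Jag1+/+ libraries, so their own values are given as a description, and whether edgeR's fit placed them past the threshold (adjusted p under 0.05 over all genes) is reported as a label and not as independent evidence.

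Dual oxidases sit in the apical membrane of epithelia, in the thyroid, airway and gut, and release hydrogen peroxide to the outside. Each leaves the endoplasmic reticulum only with its own maturation factor, encoded head to head with it in the genome. In phagocytes the catalytic subunit gp91phox (Cybb) and p22phox (Cyba) form a membrane flavocytochrome, which makes superoxide once cytosolic proteins, among them p47phox (Ncf1), p40phox (Ncf4) and the GTPase Rac2, join it. Nos2 is the inducible nitric oxide synthase of activated macrophages and cytokine-treated hepatocytes, Nos3 the constitutive one of endothelium, and Nox4 a peroxide-producing oxidase that needs p22phox but no cytosolic organiser.

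On the GRCm38 build the 4 dual oxidase genes lie together on chromosome 2, from the end of Duox2 at 122279246 to the end of Duox1 at 122347972. The RefSeq promoter table places the starts of Duox2 and Duoxa2 with 672 bases between them, pointing apart. The RefSeq span of Duox2 reaches further upstream, to 122298740, so the start of that gene is not settled. The same holds for Duox1, Cybb and Nox4, whose spans begin upstream of the start in the promoter table, at 122313010 for Duox1 and 9487766 for Cybb. The 250 bases before the annotated start of Duox2 (minus strand, chr2:122298228-122298477) and of Duoxa2 (plus strand, chr2:122298650-122298899) are shown because this pair of genes was nearly silent in one genotype and read in every library of the other. Those of Cybb (minus strand, chrX:9469325-9469574) and Ncf1 (minus strand, chr5:134229626-134229875) are shown because these phagocyte subunits had similar levels per length, given below. All are RefSeq sequences of GRCm38.p6, written 5′ to 3′. Capitals mark the letters of any motif searched.
Duox2: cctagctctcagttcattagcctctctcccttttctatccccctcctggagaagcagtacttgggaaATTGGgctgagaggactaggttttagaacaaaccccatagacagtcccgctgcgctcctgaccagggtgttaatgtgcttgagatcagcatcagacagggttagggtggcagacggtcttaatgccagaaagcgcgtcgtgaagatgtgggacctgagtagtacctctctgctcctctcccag
Duoxa2: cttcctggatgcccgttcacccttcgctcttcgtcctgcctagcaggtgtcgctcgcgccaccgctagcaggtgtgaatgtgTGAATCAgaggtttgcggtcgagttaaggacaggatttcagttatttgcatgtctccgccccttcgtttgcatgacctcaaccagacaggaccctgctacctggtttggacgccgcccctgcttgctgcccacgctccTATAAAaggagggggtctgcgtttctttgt
Cybb: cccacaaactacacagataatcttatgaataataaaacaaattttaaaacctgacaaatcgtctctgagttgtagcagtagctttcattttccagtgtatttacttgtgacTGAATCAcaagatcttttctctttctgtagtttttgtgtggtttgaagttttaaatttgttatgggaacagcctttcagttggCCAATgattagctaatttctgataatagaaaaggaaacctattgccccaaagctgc
Ncf1: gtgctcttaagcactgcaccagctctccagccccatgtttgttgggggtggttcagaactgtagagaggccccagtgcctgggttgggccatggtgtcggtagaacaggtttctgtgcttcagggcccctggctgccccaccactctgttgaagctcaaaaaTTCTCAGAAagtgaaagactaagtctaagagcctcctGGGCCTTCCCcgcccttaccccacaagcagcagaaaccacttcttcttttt

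Motifs of 6 kinds were searched on both strands, and matches of different motifs did not overlap in these windows. The RefSeq table held windows for 8 of the 10 genes, without Nos2 and Nos3. Duoxa2 had the TATA box TATAAA beginning 30 bases before its start, which 12.4% of the 32851 windows also hold somewhere in their 250 bases. It also had the AP-1 motif TGANTCA beginning 168 bases before its start, found in 6.75% of windows. Cybb likewise had an AP-1 match, 139 bases before its start, and the motif CCAAT 56 bases before it (33.8% of windows). Duox2 held only that latter motif, read on the opposite strand, 183 bases before its start. Ncf1 held an NF-kB match at 51 bases (15.9% of windows), where the motif opens with GGG, closes with its last pair of letters both C, and has T as the middle one of the 5 letters between. Its STAT match TTCNNNGAA lay at 88 bases (7.02% of windows). The PU.1 motif GAGGAA, in 23.3% of windows, was in none of the 4 shown. A match describes letters, not binding, and a missing match concerns these windows alone.

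The libraries held 12992592 to 59653111 reads. Where no read was found, the limit of 3 reads allows up to 0.266 CPM in the smallest library and 0.0421 CPM in the largest, for counting error only. CPM are reads scaled to library size with TMM factors. Albumin stood between 86138 and 180126 CPM, and Jag1 between 5.21 and 6.81 CPM in Jag1+/+ and 3.01 and 5.92 CPM in Jag1Ndr/Ndr libraries. A missense allele need not change that level, so it does not check the labels. Xist, read in females, had 9679 reads in the Jag1+/+ library numbered 1, 32884 and 7252 in those of Jag1Ndr/Ndr numbered 2 and 3, and at most 29 elsewhere, so the sexes were unevenly spread. The labels do not say that each library is a separate animal, and p-values then measure only the spread between these libraries.

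Among the epithelial enzymes, Duox2 was barely read in Jag1+/+ and clearly read in every Jag1Ndr/Ndr library. It had 2, 2 and 1 reads in Jag1+/+ replicates 1, 2 and 3, or 0.116, 0.0649 and 0.0258 CPM. In Jag1Ndr/Ndr replicates 1, 2 and 3 it had 45, 508 and 81 reads, or 3.99, 7.12 and 4.32 CPM. The genotypes lay far apart, and within Jag1Ndr/Ndr the highest library exceeded the lowest by 1.79 times. The pooled rate was 109 times that of Jag1+/+ (95% exact Poisson interval 46.3 to 336, counting error only), and the fitted log2 fold change was 6.37 ± 0.51 (SE), a fold of 82.7. A pooled rate weights each library by its depth, and 508 of the 634 Jag1Ndr/Ndr reads came from replicate 2.

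Duoxa2, without which the Duox2 protein does not mature, was read in the same libraries. It had no reads in Jag1+/+ replicates 1 and 2 and 2 reads in replicate 3, against 36, 169 and 22 reads in Jag1Ndr/Ndr replicates 1, 2 and 3. The latter equal 3.19, 2.37 and 1.17 CPM, and the pooled rate was 97.2 times that of Jag1+/+ (95% exact Poisson interval 26.6 to 808, counting error only). Every Jag1Ndr/Ndr library lay above every Jag1+/+ library for both genes of the pair. Their order within Jag1Ndr/Ndr differed, since Duox2 was highest in replicate 2 and Duoxa2 in replicate 1. Per length, the level of Duoxa2 was 2.29, 0.952 and 0.777 times that of Duox2 in Jag1Ndr/Ndr replicates 1, 2 and 3 (RPKM, reads scaled to transcript length and library size).

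The neighbouring pair stayed at the limit of detection. Duox1 had 2, 1 and 0 reads in Jag1+/+ and 0, 2 and 0 in Jag1Ndr/Ndr replicates 1, 2 and 3. Duoxa1 had a single read in all, in Jag1Ndr/Ndr replicate 3. Neither exceeded 3 reads in a genotype, so no fold is given, and neither gene passed the filter on low counts. The reads of both pairs come from 1 cluster of 68727 bases. In the RefSeq models the spans of Duox1 and Duoxa1 overlap from 122313010 to 122313763. Reads within that stretch could not be told apart without strand.

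**Figure D1:**
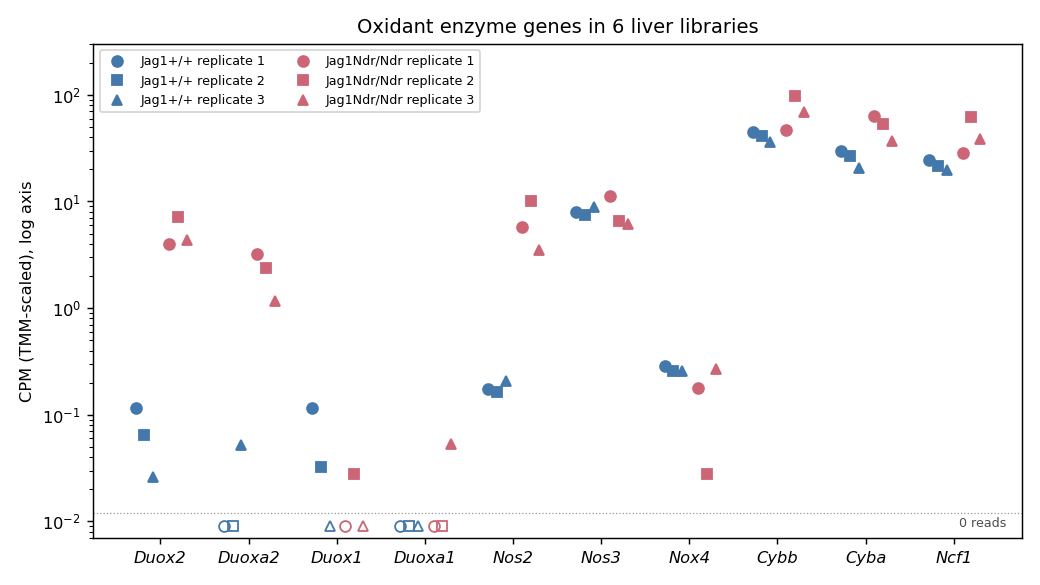
Level of each of the 10 genes (CPM after TMM scaling, log axis) in 3 Jag1+/+ (blue) and 3 Jag1Ndr/Ndr (red) libraries, with open symbols below the dotted line for 0 reads. For Duox2, Duoxa2 and Nos2 the genotypes lie widely apart, with every Jag1Ndr/Ndr library at 1.17 CPM or above and every Jag1+/+ library at 0.207 CPM or below, Cybb, Cyba and Ncf1 lie apart by less, and Nos3, Nox4, Duox1 and Duoxa1 overlap.

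Nos2 was also close to absent in Jag1+/+ liver. It measured 0.174, 0.162 and 0.207 CPM there, from 3, 5 and 8 reads. In Jag1Ndr/Ndr replicates 1, 2 and 3 it measured 5.76, 10.03 and 3.52 CPM, from 65, 715 and 66 reads. The Jag1+/+ libraries were close together (highest over lowest 1.27), while those of Jag1Ndr/Ndr spread over 2.85 times, with replicate 2 on top as for Duox2. The fitted log2 fold change was 5.12 ± 0.49.

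Nos3, the endothelial synthase, did not share this pattern. It measured 7.99, 7.53 and 8.86 CPM in Jag1+/+ and 11.2, 6.49 and 6.13 CPM in Jag1Ndr/Ndr replicates 1, 2 and 3, so the genotypes overlapped. The fitted log2 fold change was -0.05 ± 0.26, and its sign turned when library totals were used without TMM (0.028). Per length, Nos2 stood at 0.0207 to 0.0224 times the level of Nos3 in Jag1+/+ libraries, and at 0.495, 1.48 and 0.551 times in Jag1Ndr/Ndr replicates 1, 2 and 3 (RPKM). Nos2 thus stood above Nos3 in 1 library, Jag1Ndr/Ndr replicate 2. The span of Nos3 overlaps those of Atg9b and the noncoding Gm15587, and reads in the shared stretches cannot be told apart without strand. Summed endothelial markers ranged from 533 to 589 CPM in Jag1+/+ and from 516 to 555 CPM in Jag1Ndr/Ndr. Of 10 such markers 1 was past the threshold, Vwf (von Willebrand factor), with a log2 fold change at 1.29 ± 0.17 (adjusted p by edgeR 0.00576). That share was near the 7.63% of all genes tested. Most of the list leaned the other way, with a median log2 fold change of -0.14 and 3 of the 10 above 0. Kdr and Tek did not pass (-0.62 ± 0.22 and -0.49 ± 0.16, edgeR adjusted p = 0.132 and 0.106). For both, all Jag1Ndr/Ndr libraries lay below all Jag1+/+ libraries, as for 14.2% of all genes tested.

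Nox4 had 5, 8 and 10 reads in Jag1+/+ and 2, 2 and 5 reads in Jag1Ndr/Ndr replicates 1, 2 and 3. These equal 0.289, 0.260 and 0.258 CPM against 0.177, 0.0280 and 0.267 CPM. The genotypes overlapped, and the gene was too low to pass the filter on low counts. The pooled rate in Jag1Ndr/Ndr was 0.335 times that in Jag1+/+ (95% exact Poisson interval 0.137 to 0.752, counting error only). The low value of Jag1Ndr/Ndr replicate 2 rests on 2 reads in the deepest library. Stellate cell and fibroblast markers, the cells for which hepatic Nox4 is best known, summed to between 878 and 1034 CPM in Jag1+/+ and between 607 and 1003 CPM in Jag1Ndr/Ndr. Of 12 such markers 1 fell, Reln (-0.80 ± 0.18, edgeR adjusted p = 0.0361), and 11 did not pass, a share near the 7.63% of all genes tested. Reln lost that call without any one of the libraries except Jag1Ndr/Ndr replicate 2 (edgeR adjusted p from 0.0547 to 0.138), with sex as a factor (0.0809) and without TMM (0.160). The list went both ways, with a median log2 fold change of 0.082 and 6 of the 12 above 0. All Jag1Ndr/Ndr libraries lay above all Jag1+/+ libraries for 2, Des and Col1a1 (14.8% of all genes tested). They lay below for 3, Reln, Lrat and Dpt (14.2%). Col3a1 weighed most in the sum (396 to 467 CPM in Jag1+/+, 214 to 519 CPM in Jag1Ndr/Ndr).

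The phagocyte subunits were well expressed in both genotypes and moved by about a doubling or less. In bulk tissue such a difference cannot be told apart from a difference in the number of cells that carry the transcript. Cybb measured 44.4, 40.9 and 36.5 CPM in Jag1+/+ and 46.5, 98.0 and 69.5 CPM in Jag1Ndr/Ndr replicates 1, 2 and 3. All Jag1Ndr/Ndr libraries lay above the others, though replicate 1 barely so, and in RPKM without TMM its 8.78 fell inside the Jag1+/+ range of 7.51 to 9.41. The fitted log2 fold change of 0.82 ± 0.25 was not past the threshold. It went to 0.52 without Jag1Ndr/Ndr replicate 2, to 0.59 with sex as a factor (Cybb is X-linked), and to 1.04, past the threshold, without Jag1Ndr/Ndr replicate 1.

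Ncf1 ordered the libraries as Cybb did. It measured 24.3, 21.6 and 19.9 CPM in Jag1+/+ and 28.8, 62.4 and 38.97 CPM in Jag1Ndr/Ndr replicates 1, 2 and 3. Per length its level was between 0.921 and 0.954 times that of Cybb in the Jag1+/+ libraries and between 1.06 and 1.23 times in the Jag1Ndr/Ndr libraries (RPKM). Its fitted log2 fold change of 0.99 ± 0.27 was not past the threshold either. It went to 0.64 without Jag1Ndr/Ndr replicate 2 and to 1.21, past the threshold, without Jag1Ndr/Ndr replicate 1. It was also past it with no filter and by DESeq2, which placed Cybb past it too and so 6 of the 10 genes in all. Over all genes DESeq2 placed 1858 of 15554 past it, 1123 of them higher. A noncoding RefSeq model overlaps each of Cybb and Ncf1.

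Cyba behaved differently from its partner. It measured 29.8, 26.7 and 20.7 CPM in Jag1+/+ and 63.5, 53.5 and 36.9 CPM in Jag1Ndr/Ndr replicates 1, 2 and 3, so that replicate 1, the lowest for Cybb and Ncf1, was the highest. Per length Cyba stood at 3.55 to 4.20 times the level of Cybb in Jag1+/+, and at 8.55, 3.42 and 3.32 times in Jag1Ndr/Ndr replicates 1, 2 and 3 (RPKM). The fitted log2 fold change of 1.00 ± 0.23 was past the threshold. It was no longer so without Jag1+/+ replicates 1, 2 and 3 (1.11, 1.02 and 0.86), without Jag1Ndr/Ndr replicates 1 and 2 (0.81 and 0.97) and with sex as a factor (1.01).

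Mvd, an enzyme of cholesterol synthesis, lies on the same strand as Cyba, ending 655 bases upstream of its start (chromosome 8, Cyba at 122424771 to 122432940). Mvd measured 4.51, 8.34 and 4.47 CPM in Jag1+/+ and 93.6, 33.1 and 33.2 CPM in Jag1Ndr/Ndr replicates 1, 2 and 3, so it too was highest in Jag1Ndr/Ndr replicate 1. Whether reads or transcription running on from Mvd add to Cyba was not tested.

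Of the 10 genes, 7 passed the filter on low counts, and Duox2, Duoxa2 and Nos2 did so only through the Jag1Ndr/Ndr libraries. Duox2, Duoxa2, Nos2 and Cyba were past the threshold, all higher in Jag1Ndr/Ndr, where 7.63% of all 13819 genes tested were past it, 4.73% higher and 2.9% lower. The median log2 fold change over the 7 genes was 1.00, against 0.0041 over all genes tested. All Jag1Ndr/Ndr libraries lay above all Jag1+/+ libraries for 6 of the 7, and for 14.8% of all genes tested. These shares are a description, since the contrast had been seen when the genes were chosen.

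**Figure D2:**
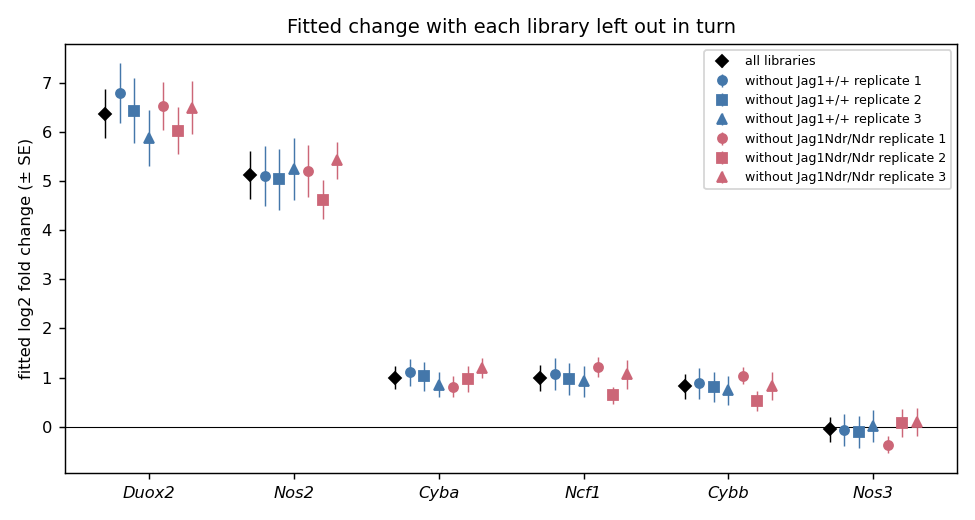
Fitted log2 fold change (± SE) of 6 genes with all libraries (black) and with each library left out in turn (blue, a Jag1+/+ library left out; red, a Jag1Ndr/Ndr library). Duox2 and Nos2 stay at 4.62 or above in every fit, Cybb and Ncf1 move most when Jag1Ndr/Ndr replicate 1 or 2 is left out, and Nos3 lies around 0.

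In level per length, Jag1+/+ livers ranked Cyba (RPKM 26.6 to 39.5 over the libraries) first, then Cybb (7.51 to 9.41) and Ncf1 (7.17 to 8.95), whose ranges overlapped. Nos3 (1.93 to 2.26) came next, well apart, and Nox4 (0.0675 to 0.0778), Nos2 (0.0399 to 0.0507) and Duox2 (0.00555 to 0.0256) followed without overlap. Below these, Duox2, Duoxa2 and Duox1 could not be ordered. In Jag1Ndr/Ndr livers Cyba again led (54.2 to 86.2), with Ncf1 and Cybb overlapping behind it (9.48 to 31.0 and 8.78 to 25.2). The ranges of Nos3 (1.79 to 2.61), Nos2 (0.984 to 3.07), Duoxa2 (0.822 to 1.82) and Duox2 (0.785 to 1.91) now overlapped from one to the next, all below those of the phagocyte subunits. Within each library Duox2 and Duoxa2 lay below Nos3, and Nos2 lay above it in replicate 2 alone.

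The genes whose profiles over the 6 libraries lay nearest were found by the root mean square difference of log2 CPM after centring each gene on its own mean. For Duox2 the nearest of the 13819 genes tested was Nos2 (0.560), before Shc2 (0.685) and Sprr1a (0.687). For Nos2 it was Duoxa2 (0.419), before 2010003K11Rik (0.516) and Lif (0.531). For Cybb the nearest were B4galt6 (0.0760), Gdf10 (0.0909) and Col5a2 (0.0930), with no other oxidase subunit among the closest 3. The distance is smaller for genes that vary little, so it is comparable only within 1 gene's list. The genes nearest to Duox2 and Nos2 had fitted log2 fold changes from 3.93 to 6.39. Duox2, Duoxa2 and Nos2 were chosen for such a difference between these genotypes. Their nearness was thus largely set by that choice and says nothing on shared regulation.

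Of the other NADPH oxidase genes 2 of 6 tested rose, against 4.73% of all genes tested, 4 did not pass, and the list's median log2 fold change was 0.56. Noxa1, which activates Nox1 in epithelium, rose from 0.0579, 0.616 and 0.284 CPM in Jag1+/+ to 7.0, 3.73 and 3.04 CPM in Jag1Ndr/Ndr replicates 1, 2 and 3 (log2 fold change 3.70 ± 0.60, edgeR adjusted p = 0.0112). Its catalytic partner Nox1 had no reads in any library, nor had Nox3, while the organiser Noxo1 measured 2.20 to 2.82 CPM in Jag1+/+ and 2.57 to 3.90 CPM in Jag1Ndr/Ndr and did not pass (edgeR adjusted p = 0.425). Noxa1 lost its call without Jag1+/+ replicate 3 (edgeR adjusted p = 0.0551).

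The cytosolic phagocyte subunit Ncf4 also rose. Ncf4, p40phox, went from 7.76, 7.92 and 6.66 CPM to 16.0, 34.7 and 16.1 CPM in Jag1Ndr/Ndr replicates 1, 2 and 3, a log2 change by 1.60 ± 0.32 (edgeR adjusted p = 0.0218). The Jag1Ndr/Ndr libraries all lay above the Jag1+/+ libraries, and replicate 2 was highest. Rac2, the leukocyte GTPase of the complex, measured 48.7 to 65.1 CPM in Jag1+/+ and 74.8 to 123 CPM in Jag1Ndr/Ndr and did not pass (log2 fold change 0.70 ± 0.22, edgeR adjusted p = 0.102). The ubiquitous Rac1 (0.11 ± 0.15) and Cybc1, a chaperone of the flavocytochrome listed under its older symbol BC017643 (0.24 ± 0.15), did not pass. Ncf4 lost its call without Jag1+/+ replicate 1, 2 or 3 (edgeR adjusted p from 0.0811 to 0.0907) and with sex as a factor (0.0688), where 1 of the 6 genes, Noxa1, was past the threshold.

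**Figure D3:**
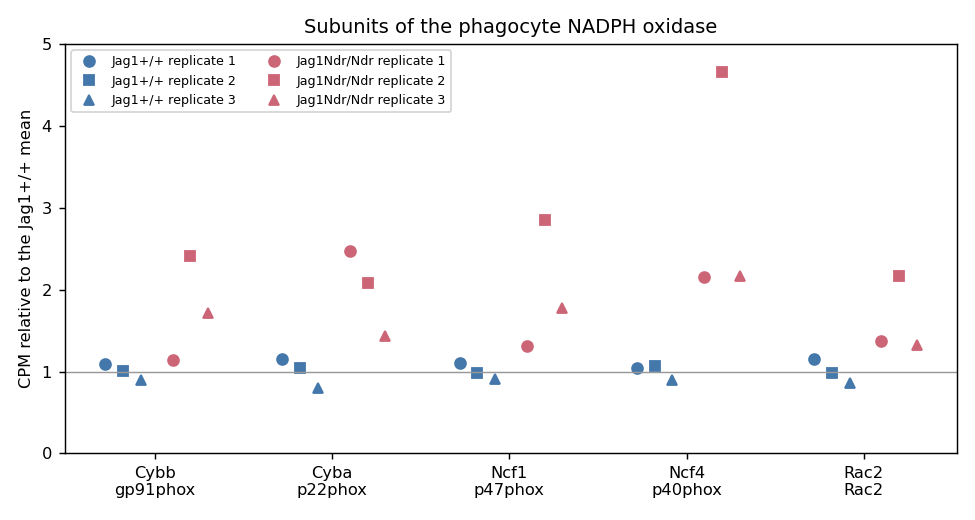
CPM of 5 components of the phagocyte NADPH oxidase in each library, relative to the mean of the 3 Jag1+/+ libraries (grey line at 1). Jag1Ndr/Ndr replicate 2 (red square) is highest for each gene except Cyba, where Jag1Ndr/Ndr replicate 1 reaches 2.47 times the Jag1+/+ mean, and Ncf4 reaches 4.66 times.

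Markers of the cells that carry this oxidase moved in the same libraries. Of 14 measured neutrophil markers 8 rose, against 4.73% of all genes tested, and the other 6 did not pass. Their median log2 fold change was 1.47. Their summed level ranged from 660 to 788 CPM in Jag1+/+ and stood at 1120, 2515 and 1606 CPM in Jag1Ndr/Ndr replicates 1, 2 and 3, in the order in which Cybb and Ncf1 fell (Ly6g matched no entry, and no measured marker was at 0). Csf3r and Cxcr2, receptors of mature neutrophils, had log2 fold changes of 1.82 ± 0.21 and 2.12 ± 0.30 (adjusted p by edgeR 0.00343 and 0.00764). The calprotectin genes S100a9 and S100a8 had 1.46 ± 0.24 and 1.48 ± 0.26 (edgeR adjusted p = 0.0114 and 0.0139). The number of markers past the threshold was 4, 2 and 2 without Jag1+/+ replicates 1, 2 and 3, 13 without Jag1Ndr/Ndr replicate 1 and 4 with sex as a factor. S100a9 and S100a8 lost their calls without Jag1+/+ replicates 2 and 3 (edgeR adjusted p = 0.0626 and 0.0619, and 0.0766 and 0.0727).

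Of 15 macrophage and monocyte markers 3 rose, against 4.73% of all genes tested, and 12 did not pass. Their median log2 fold change was 0.58. Their sum ranged from 982 to 1695 CPM in Jag1+/+ and stood at 3362, 2105 and 2010 CPM in Jag1Ndr/Ndr replicates 1, 2 and 3, in the order seen for Cyba, with none of the markers at 0. Abundant markers weigh most in that sum, among them Marco (945, 386 and 343 CPM) and Cd5l (612, 332 and 395 CPM). Within Jag1Ndr/Ndr, Csf1r (187, 223 and 183 CPM), Adgre1, Ccr2 and Itgax were instead highest in replicate 2, as Cybb was. The other markers were highest in replicate 1. Lysozyme (Lyz2) had a log2 fold change of 1.47 ± 0.24, the monocyte receptor Ccr2 2.10 ± 0.41 and the lysosomal Cd68 0.88 ± 0.20 (edgeR adjusted p = 0.0107, 0.0205 and 0.0351). The Kupffer cell markers Clec4f, Vsig4 and Timd4 did not pass, at 0.37 ± 0.23, 0.28 ± 0.24 and 0.38 ± 0.21. Marco and Cd5l did not pass either, at 1.85 ± 0.49 and 0.96 ± 0.30 (edgeR adjusted p = 0.0579 and 0.0991). For both, all Jag1Ndr/Ndr libraries lay above all Jag1+/+ libraries, as for 14.8% of all genes tested. The number past the threshold was 1, 0 and 0 without Jag1+/+ replicates 1, 2 and 3 and 1 with sex as a factor. The edgeR adjusted p of Lyz2 was 0.0600 and 0.0602 without Jag1+/+ replicates 2 and 3, that of Ccr2 0.0797, 0.0558 and 0.0775 without Jag1+/+ replicates 1, 2 and 3, and that of Cd68 up to 0.157 over the libraries left out. The part of neutrophils or macrophages in the levels of Cybb, Ncf1 and Cyba was not tested.

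**Figure D4:**
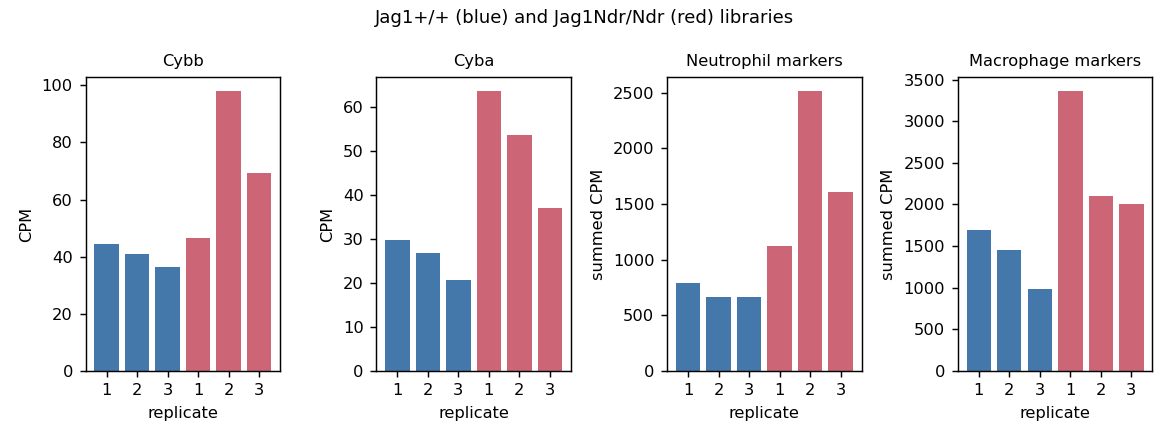
Level of Cybb and Cyba (CPM) and summed level of 14 neutrophil and 15 macrophage markers (CPM) in each Jag1+/+ (blue) and Jag1Ndr/Ndr (red) library. In Jag1Ndr/Ndr, Cybb and the neutrophil sum are highest in replicate 2, at 98.0 and 2515 CPM, and Cyba and the macrophage sum in replicate 1, at 63.5 and 3362 CPM. Abundant markers weigh most in each sum. In the macrophage list Csf1r, Adgre1, Ccr2 and Itgax are highest in replicate 2 and the others in replicate 1.

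For the epithelial enzymes the markers nearest to hand are those of bile duct, and these did not move as a group. Of 10 tested, Cldn7 and Cldn4, claudins of tight junctions, rose (3.82 ± 0.38 and 4.17 ± 0.69 on the log2 scale, edgeR adjusted p = 0.00238 and 0.0116). The other 8 did not pass, with a list median of -0.29, where 4.73% of all genes tested rose. Their sum ranged from 180 to 226 CPM in Jag1+/+ and from 114 to 208 CPM in Jag1Ndr/Ndr, and Krt19, Krt7 and Epcam, which define duct epithelium, did not pass (0.56 ± 0.50, 0.55 ± 0.38 and -0.22 ± 0.60). Without Jag1+/+ replicate 1, 2 or 3 Cldn4 lost its call (edgeR adjusted p = 0.0542, 0.0554 and 0.0555). Hepatocyte markers summed to between 220528 and 228223 CPM in Jag1+/+ and to 188228, 107145 and 124486 CPM in Jag1Ndr/Ndr replicates 1, 2 and 3. Most of that sum was albumin (Alb), which did not pass (-0.66 ± 0.28, edgeR adjusted p = 0.214). Fitted changes of 2 of the 8 markers, Tat and Fgb, were above 0 (0.95 ± 0.59 and 0.25 ± 0.22). Of the 8, Cyp2e1 and Ttr fell (-1.76 ± 0.22 and -1.37 ± 0.28, edgeR adjusted p = 0.00454 and 0.0238) and 6 did not pass, where 2.9% of all genes tested fell. Ttr lost its call without Jag1+/+ replicates 1, 2 and 3 and without Jag1Ndr/Ndr replicate 3 (edgeR adjusted p = 0.0962, 0.101, 0.104 and 0.0697). Which cells made the Duox2, Duoxa2 and Nos2 transcripts was not tested.

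Among signals known to induce Duox2 or Nos2, the share past the threshold was near the 7.63% of all genes. Of 14 tested cytokine, receptor and factor genes 1 rose, Nfkbiz, a nuclear cofactor of NF-kB, from 9.49, 9.18 and 9.14 CPM to 16.3, 26.7 and 20.1 CPM in Jag1Ndr/Ndr replicates 1, 2 and 3 (log2 fold change 1.19 ± 0.21, edgeR adjusted p = 0.0132). The other 13 did not pass, and the list's median was 0.48. All Jag1Ndr/Ndr libraries lay above all Jag1+/+ libraries for 8 of the 14, against 14.8% of all genes tested. At an unadjusted p under 0.05 edgeR had 9 of the 14 higher, and the share of all genes at that limit was not computed. DESeq2, which gave a p for 19 of the listed genes, placed 6 past the adjusted threshold. Over all genes it placed 1858 of 15554 past it, 1123 of them higher. Il1b measured 6.48, 1.95 and 1.55 CPM in Jag1+/+ and 9.66, 8.13 and 7.14 CPM in Jag1Ndr/Ndr (log2 fold change 1.36 ± 0.50, edgeR adjusted p = 0.151), with Jag1+/+ replicate 1 close to the Jag1Ndr/Ndr libraries. The receptor subunit Il22ra1 had 0.73 ± 0.21 and the NF-kB subunit Rela 0.45 ± 0.14 (edgeR adjusted p = 0.0694 and 0.0859). Il17a and Il22 had no reads, and Il6, Ifng, Il4, Il13 and Il17c were too low to pass the filter on low counts. Nfkbiz lost its call without Jag1+/+ replicates 1, 2 and 3 (edgeR adjusted p = 0.0608, 0.0671 and 0.0657).

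Among genes that supply nitric oxide synthases the share past the threshold was also near the 7.63% of all genes. Of 17 tested 1 rose, Arg2, the mitochondrial arginase that competes for arginine, from 0.267 ± 0.153 to 1.22 ± 0.358 CPM (mean ± SD, n = 3; log2 fold change 2.23 ± 0.52, edgeR adjusted p = 0.0393), and 16 did not pass, with a list median of 0.19. At an unadjusted p under 0.05 edgeR had 5 of the 17 higher, and the share of all genes at that limit was not computed. Gch1, the first enzyme of tetrahydrobiopterin synthesis, measured 40.8 to 55.7 CPM in Jag1+/+ and 57.5 to 81.7 CPM in Jag1Ndr/Ndr (0.47 ± 0.19, edgeR adjusted p = 0.183). The arginine transporter Slc7a2 measured 116 to 154 CPM against 185 to 317 CPM (0.91 ± 0.24, edgeR adjusted p = 0.0533). Ass1, an abundant liver enzyme, is listed with only 17 reads in Jag1+/+ and 40 in Jag1Ndr/Ndr, so its entry does not reflect its transcript and was not used. Arg2 lost its call without any one of the libraries except Jag1Ndr/Ndr replicate 2 (edgeR adjusted p from 0.0678 to 0.140), and with sex as a factor (0.0870).

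Enzymes that remove superoxide and peroxide went both ways. Of 19 tested 4 rose, 1 fell and 14 did not pass, with a list median of 0.022, where 4.73% of all genes tested rose and 2.9% fell. The secreted peroxidase Gpx3 rose from 9.78, 10.3 and 8.11 CPM to 70.7, 32.4 and 57.4 CPM, a log2 change by 2.50 ± 0.29 (edgeR adjusted p = 0.00350), and stayed past the threshold in all 14 alternative analyses. The extracellular superoxide dismutase Sod3 rose from 111 ± 16.8 to 217 ± 4.82 CPM (0.97 ± 0.17, edgeR adjusted p = 0.0131) and thioredoxin reductase Txnrd1 from 69.6 ± 6.48 to 115 ± 6.48 CPM (0.73 ± 0.15, edgeR adjusted p = 0.0225). Catalase (Cat), of peroxisomes, fell from 1407 ± 90.0 to 797 ± 85.4 CPM (-0.82 ± 0.18, edgeR adjusted p = 0.0327; each mean ± SD, n = 3). The fourth to rise was Gpx4, whose many processed copies can take its reads. Calls of a rise numbered 1, 1 and 2 without Jag1+/+ replicates 1, 2 and 3, where Cat also lost its call (edgeR adjusted p = 0.109, 0.126 and 0.167), as it did with library totals without TMM and with sex as a factor (0.0752 and 0.0642). Sod3 lost its call without Jag1+/+ replicates 1 and 2 (0.0745 and 0.0933) and Txnrd1 without Jag1+/+ replicates 1, 2 and 3 (0.106, 0.138 and 0.0789), all edgeR adjusted p.

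**Figure D5:**
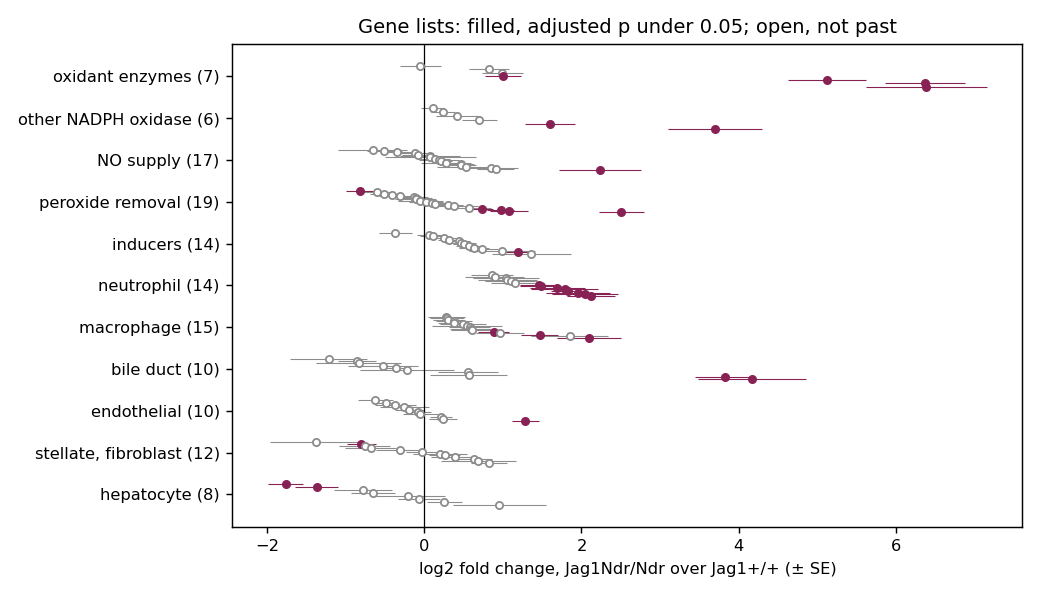
Fitted log2 fold change (± SE) of each tested gene, by list, with the number tested in brackets (filled, past the threshold; open, not past). Duox2, Duoxa2 and Nos2 lie above 5, Noxa1 and the claudins between 3 and 5, and the neutrophil and macrophage markers all lie above 0 with medians of 1.47 and 0.58.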

How the data were processed

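Per the file headers, the deposited table holds raw read counts for each gene entry and RPKM that the authors scaled with TMM factors. The submitters' processing notes name STAR and mm10, with versions not given, and no source used here names the counter. Levels per length are the deposited RPKM with that factor divided out, which followed reads over library totals within 5% for 98.2% of values over 10023 genes.

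Counts were scaled by TMM, filtered with filterByExpr (13819 of 24489 entries) and tested with edgeR 4.0.16 (quasi-likelihood, two-sided), with p-values adjusted by Benjamini-Hochberg over all genes and a threshold of 0.05 (limma 3.58.1, DESeq2 1.42.0, R 4.3.3). The 93 entries for spike-ins and eGFP, which hold 5 reads, were not used. SE was taken as the fold change (log2) divided by the square root of F. The test was checked on simulated data. Sex was read from Xist (over 1000 reads).

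The genes and lists were chosen with earlier results of these data known, and 1 gene was taken out of the list of other NADPH oxidase genes and is not reported here. Named are all 10 genes, up to 4 genes past the threshold per list, and the 3 nearest profiles. Mvd, Noxo1, Rac1, Rac2, Cybc1, Gch1, Slc7a2, Gpx4, Ass1, Il1b, Il22ra1, Rela and markers that did not pass were named after their values were seen.

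Alternatives were DESeq2, library totals without TMM, no filter, at least 1 CPM in 3 libraries, limma on log2 RPKM plus 1 or 0.1, a replicate block, sex as a factor, and each library left out in turn.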

Additional observations from a re-analysis of the deposited data

How the results depend on the processing

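Duox2 and Nos2 were past the threshold in 13 of 14 alternatives and Duoxa2 in 14. The exception was limma on log2(RPKM + 1), where such a pseudocount shrinks low genes (log2 fold changes 1.18 and 1.40). Cyba was past it in 6 of 14, Ncf1 in 3 and Cybb in 2, always higher in Jag1Ndr/Ndr. Nos3 passed in none and its direction turned in 7, to 0.028 without TMM, 0.11 and 0.15 by limma with pseudocounts of 1 and 0.1, 0.054 with sex as a factor, and over libraries left out between -0.37 and 0.10.

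By limma on log2(RPKM + 1), 1 of the 10 genes was higher, with 1 other NADPH oxidase gene, 2 peroxide-removal genes higher and 0 lower, 0 inducers, 0 neutrophil, 1 bile duct, 0 endothelial, 0 stellate and 0 hepatocyte genes (lower). At an unadjusted p under 0.05, limma gave 5 inducers and 8 neutrophil markers higher, 1 endothelial gene higher and 2 hepatocyte genes lower. With 0.1 the NADPH oxidase count was 1, peroxide removal 2 and 0, and inducers, neutrophil, endothelial and stellate 0. With sex as a factor it was 1 for NADPH oxidase and 1 for macrophages, 4 for neutrophils, and 0 for nitric oxide supply (4 unadjusted), lower peroxide-removal (4 unadjusted) and lower stellate genes (3 unadjusted). DESeq2 gave 2 nitric oxide supply genes, 6 inducers, 5 macrophage markers, 1 bile duct marker lower and 1 stellate marker higher. Without TMM these were 2 nitric oxide supply genes, and 0 peroxide-removal and 0 stellate genes lower (3 and 2 unadjusted). Without a filter they were 2 nitric oxide supply genes and 1 bile duct marker lower.

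With a single library left out, the 10 genes gave 3 to 5 calls higher. The lists gave 0 to 2 (NADPH oxidase), 0 to 2 higher and 0 to 2 lower (nitric oxide supply), 1 to 4 and 0 to 2 (peroxide removal), 0 to 2 and 0 to 1 (inducers), 2 to 13 (neutrophil), 0 to 3 (macrophage), 1 to 2 and 0 to 1 (bile duct), 1 to 1 and 0 to 1 (endothelial), 0 to 1 and 0 to 2 (stellate) and 0 to 1 and 1 to 4 (hepatocyte).

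Same-numbered libraries deviated together with correlations of 0.0856, 0.170 and 0.195, each library correlating best with its own number, but the first is under 0.1, so they were not treated as pairs. The replicate block gave 4 of the 10 genes higher, 2 nitric oxide supply genes, 3 inducers, 5 macrophage markers, 1 bile duct marker lower and 1 stellate marker higher, and 1430 calls over all genes against 1054. Calls over all genes were 653 higher and 401 lower with TMM and 606 and 210 without, where log2 fold changes shifted by a median of 0.13. The RPKM shifted them by 0.21 (pseudocount 1). Depth limits Duox1, Duoxa1 and Nox4, which did not pass the filter on low counts. Without a filter and by DESeq2 all 10 genes had a p, and 0 were lower even at an unadjusted p under 0.05.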
